A study of Mus musculus with 30 samples.

Results

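The 33 genes described here carry glucose and lactate across the cell membrane, run the steps of glycolysis, set its speed and decide whether pyruvate enters the mitochondrion. They were followed in 30 poly(A) RNA-seq libraries of mouse induced pluripotent stem cells (iPSCs) and the retinal organoids grown from them. The members were taken by symbol from the table of 45594 genes, where each of the 33 symbols was found under 1 identifier, and the transcript table held 252 transcripts of them. The members are 16 enzymes of the core path (Bpgm included), 2 lactate dehydrogenase subunits, 4 transporters, 4 Pfkfb enzymes and 7 genes of pyruvate entry and its control.

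The groups are 10 days of differentiation, from D0 through D4, D7, D10, D12, D15, D18, D22 and D25 to D32, with 3 libraries each, labelled as biological replicates, so the tests measure the spread between those samples. All libraries come from 1 wild-type iPSC clone, made with 4 inducible reprogramming factors from fibroblasts of embryonic day 14.5 Nrl-GFP mice, in which green fluorescent protein marks rod photoreceptors. D0 is the iPSCs, kept on feeder cells with LIF and serum; D4 is 36 whole aggregates per library in a medium with added pyruvate, with Matrigel from the day after plating. From D7 the neural retina was dissected from pooled organoids, with 30 organoids per library on the first of these days, 20 at D10 and 12 later. On day 7 the organoids were moved to DMEM/F12 with N2; from day 10 taurine, 9-cis retinal and insulin-like growth factor were added, and from day 26 amino acids, B27 and serum. Oxygen was 5% until day 10 and 20% from then, and the labels do not say on which side of the switch the D10 samples were taken. By these dates medium, oxygen and dissection were the same from D12 to D25. In differences that reach outside those days some of them change, or may change, with the day. Their parts there cannot be told apart.

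Glycolysis splits glucose into pyruvate and yields ATP without oxygen. Lactate dehydrogenase turns pyruvate into lactate, which leaves the cell through monocarboxylate transporters, while the pyruvate carrier and the pyruvate dehydrogenase complex lead pyruvate into the mitochondrion, a route that the Pdk kinases close. Photoreceptors and dividing retinal progenitors are known for making much lactate even where oxygen is present, and many of these genes are textbook targets of the hypoxia-inducible factors.

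Depth was 16773845 to 24526475 counts per library, and all 33 members passed the filter on low counts. Levels are given as CPM, a gene's counts relative to the total of its library after adjustment by TMM factors, and a change is a log2 difference between day means. The labels fitted the markers: summed pluripotency markers were 3800 to 4350 CPM at D0 and at most 12.9 CPM from D10 on, and summed photoreceptor markers reached 7210 to 9270 CPM at D32. Replicate 2 of D4 stood apart with a TMM factor of 0.524 and is part of the test over all days and of the D4 means and shares; in the 6 comparisons between days it enters through the shared estimate of spread. The libraries also fell into 2 sets by how reads were shared between near-identical copies: 12 libraries (the 6 of D0 and D7 together with the second replicate on D10, D12, D15, D18, D22 as well as D25) gave 12.0 to 31.8% of Rpl3 counts to its pseudogenes and the other 18 gave 70.9 to 86.5%. Of the members, Aldoa (-0.36, adjusted p = 0.024) and Ldhb (-0.21, adjusted p = 0.049) were lower in the first set in the libraries of D10 through D25 by edgeR's quasi-likelihood test, against 4.71% of all tested genes. The material is bulk tissue, so fewer cells of a type and less RNA per cell cannot be told apart.

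All 33 members changed over the 10 days by edgeR's quasi-likelihood test with Benjamini-Hochberg adjustment, against 91.4% of the 19897 tested genes. The members held 1.85 to 2.04% of each library's counts at D7, 2.62 to 2.83% at D10 and 1.94 to 2.22% at D12, against 2.81 to 3.42% at D4 and 2.92 to 3.22% at D32. By CPM the day mean was highest at D32 for 11 members (21.4% of all tested genes) and at D4 for another 11 (15.5% of all), and lowest at D7 for 13. These counts depend on the scaling, as alternatives chosen after seeing the data showed. With library sizes not adjusted by TMM factors 4 members were highest at D4 (5.64% of all), 16 at D32 (26.9%) and 9 lowest at D7 (7.63%). Per length the counts were 2 (2.62% of all), 16 (33%) and 7 (5.99%). The shares over all genes thus moved with the scaling as well. Gapdh and Pkm were highest at D4 in each of these scalings. Without D4 replicate 2 the CPM means of 8 members were highest at D4 (13.5% of all). The widest ranges between day means were those of Pdk4 (51.7-fold), Pfkp (40.5-fold), Eno2 (26.7-fold) and Aldoc (21.9-fold), and the narrowest that of Pfkm (1.75-fold). Gapdh, Pgk1, Eno1 and Pkm, 4 enzymes of the lower path, were called in none of the 6 comparisons between days, and Eno2 was called in all 6. The shares of all tested genes called in none or in all 6 were not computed. The Eno2 calls from D7 to D10, D18 to D25 and D25 to D32 were lost in some of the fits given below.

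**Figure D1:**
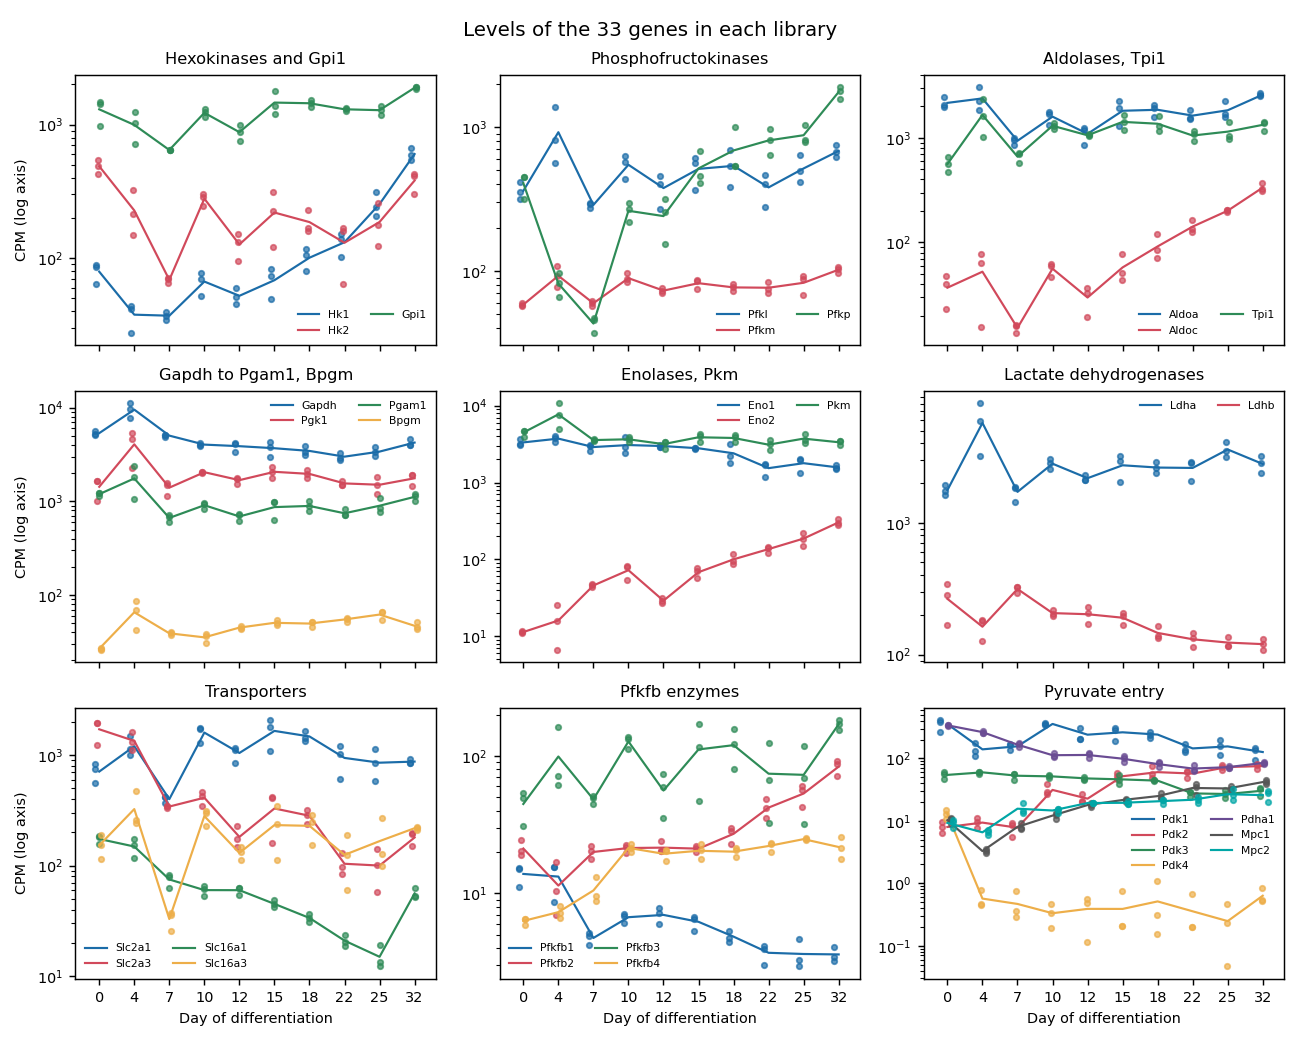
Level of each of the 33 genes in CPM (vertical axis, log scale) against the day of differentiation (days evenly spaced, not to scale). Points are libraries and lines join the means of 3 libraries; Hk1, Pfkp, Aldoc and Eno2 end at their highest mean at D32.

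From D0 to D7, iPSCs against early neural retina, all 4 transporters and 7 of 16 core enzymes fell, while Eno2 and Bpgm, also core enzymes, rose. Of the 33 members 16 fell and 4 rose, while 58.4% of all tested genes were called, 29.6% lower and 28.8% higher; the median log2 change was -0.33 over the members and 0 over all genes. Among the 7 genes of pyruvate entry and its control 4 fell and 1 rose. Feeder and fibroblast markers summed to 451 to 1220 CPM at D0 and 70.9 to 83.2 CPM at D7, and 5 of the 6 fell; their part in the result was not tested.

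Slc2a3, the high-affinity glucose transporter GLUT3, was at 1940, 1940 and 1240 CPM in the D0 libraries and at 334, 343 and 348 CPM in those of D7. The groups did not overlap, and the level fell by 2.32 (SE 0.30; edgeR adjusted p = 3.7e-07). Slc2a1, the GLUT1 transporter, fell by 0.83 (SE 0.25; adjusted p = 0.0055). The lactate carrier Slc16a3 (MCT4) was at 153, 190 and 114 CPM at D0 and at 25.7, 35.4 and 37.5 CPM at D7, also with no overlap, and fell by 2.21 (SE 0.40; edgeR adjusted p = 3.7e-05). Slc16a1 (MCT1), which moves lactate and pyruvate either way, fell by 1.21 (SE 0.16).

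Hk2, the inducible hexokinase that traps glucose as its phosphate, stood at 544, 491 and 427 CPM at D0 and at 70.5, 70.1 and 65.2 CPM at D7. It fell by 2.83 (SE 0.35; edgeR adjusted p = 1.7e-07), and Hk1, its housekeeping relative, fell by 1.10 (SE 0.21). Pfkp, the platelet-type phosphofructokinase, was at 452, 453 and 318 CPM at D0 and at 47.1, 37.1 and 45.4 CPM at D7. Every D7 library lay below every D0 library, and the level fell by 3.24 (SE 0.28; edgeR adjusted p = 3.1e-10). Gpi1, Aldoa, Aldoc and Pgam1, enzymes of the sugar phosphate and phosphoglycerate steps, fell by 1.01, 1.21, 1.28 and 0.84. Pfkl, Pfkm, Tpi1, Gapdh, Pgk1, Eno1, Pkm, Ldha and Ldhb did not pass, with log2 differences between -0.33 and 0.25.

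Eno2, the neuronal enolase, went the other way: 11.4, 11 and 11.7 CPM at D0 and 47.4, 44.2 and 46.0 CPM at D7, a rise of 2.01 (SE 0.27; edgeR adjusted p = 4.9e-07). Bpgm (0.55), Pfkfb4 (0.74) and Mpc2 (0.76) also rose. Pdk4, a Pdk kinase known from fasting and fat use, was at 14.9, 12.8 and 10.8 CPM at D0 and at 0.362, 0.754 and 0.285 CPM at D7, a fall of 4.76 (SE 0.63; edgeR adjusted p = 4.7e-07); no library after D0 was above 1.07 CPM. Pdk1, which is known as a hypoxia-responsive kinase, fell by 1.18 (SE 0.23), and Pdha1, the catalytic subunit that the kinases act on, by 1.03 (SE 0.11). Pfkfb1 fell by 1.55 (SE 0.23). Mpc1, a subunit of the mitochondrial pyruvate carrier, fell by 0.35 (SE 0.15; adjusted p = 0.045) with overlapping groups, and its call was lost without D0 replicate 1 (adjusted p = 0.2), D0 replicate 3 (0.15), D7 replicate 2 (0.13) or D7 replicate 3 (0.15).

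From D7 to D10 most called members were higher: 18 rose and 2 fell, against 20% and 17.8% of all tested genes (37.8% in either direction), and the median change was 0.60 over the members and 0.03 over all genes. Both comparisons use the D7 libraries. The risers were 10 of 16 core enzymes, Ldha, Slc2a1 and Slc16a3, Pfkfb3 and Pfkfb4, and Pdk1, Pdk2 and Mpc1. Ldhb fell by 0.61 (SE 0.18; edgeR adjusted p = 0.0094) and Pdha1 by 0.56 (SE 0.11; adjusted p = 0.0002). Over the same days ganglion cell markers went from 2.22 to 8.49 CPM up to 74.3 to 95.8 CPM (3 of 3 rose), retinal progenitor markers from 666 to 810 CPM up to 1510 to 1590 CPM (4 of 6 rose) and photoreceptor markers from 8.07 to 17.5 CPM up to 37 to 58.9 CPM (1 of 7 rose); their part in the result was not tested. D7 libraries belong to 1 copy-sharing set and D10 libraries to both, and 19 members were called when the fit also held a term for the set.

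Slc16a3 was at 301, 230 and 309 CPM in the D10 libraries, all above the 25.7 to 37.5 CPM of D7, and rose by 3.09 (SE 0.41; edgeR adjusted p = 2.7e-06). Slc2a1 was at 414, 417 and 365 CPM at D7 and at 1760, 1290 and 1730 CPM at D10, again with no overlap, and rose by 2.00 (SE 0.25; edgeR adjusted p = 1.3e-06). Slc2a3 (0.26, SE 0.29, adjusted p = 0.51) and Slc16a1 (-0.32, SE 0.16, adjusted p = 0.11) did not pass the edgeR test. The called transporters were thus 1 of each pair.

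Pfkp reached 269, 218 and 299 CPM at D10 and rose by 2.6 (SE 0.27; edgeR adjusted p = 7.7e-08). Hk2 reached 302, 245 and 289 CPM and rose by 2.02 (SE 0.34; edgeR adjusted p = 4.8e-05). Pdk2, a widely expressed Pdk kinase, went from 8.49, 5.55 and 9.23 CPM to 26.8, 28.7 and 38.2 CPM, a rise of 2.01 (SE 0.21; edgeR adjusted p = 6e-08). None of these 3 genes overlapped between the days.

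Smaller rises were those of Aldoc (1.88), Pfkfb3 (1.40), Pdk1 (1.19), Pfkfb4 (1.03), Tpi1 (0.98), Gpi1 (0.93), Pfkl (0.93), Hk1 (0.85), Aldoa (0.77), Ldha (0.71), Eno2 (0.66), Mpc1 (0.60) and Pfkm (0.58). Pfkfb3 and Pfkfb4 make fructose 2,6-bisphosphate, the activator of phosphofructokinase. With the library set as a term, Pfkfb3 (1.19, adjusted p = 0.06) and Eno2 (0.57, adjusted p = 0.11) were no longer called, and Gapdh was called lower (-0.41, adjusted p = 0.027). Pfkfb3 also lost its call without D10 replicate 1 (adjusted p = 0.051) or any single D7 library (0.052 to 0.063), Eno2 without D10 replicate 1 (0.14), D10 replicate 3 (0.13) or any single D7 library (0.078 to 0.11), and Ldha without D7 replicate 1 (0.066).

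**Figure D2:**
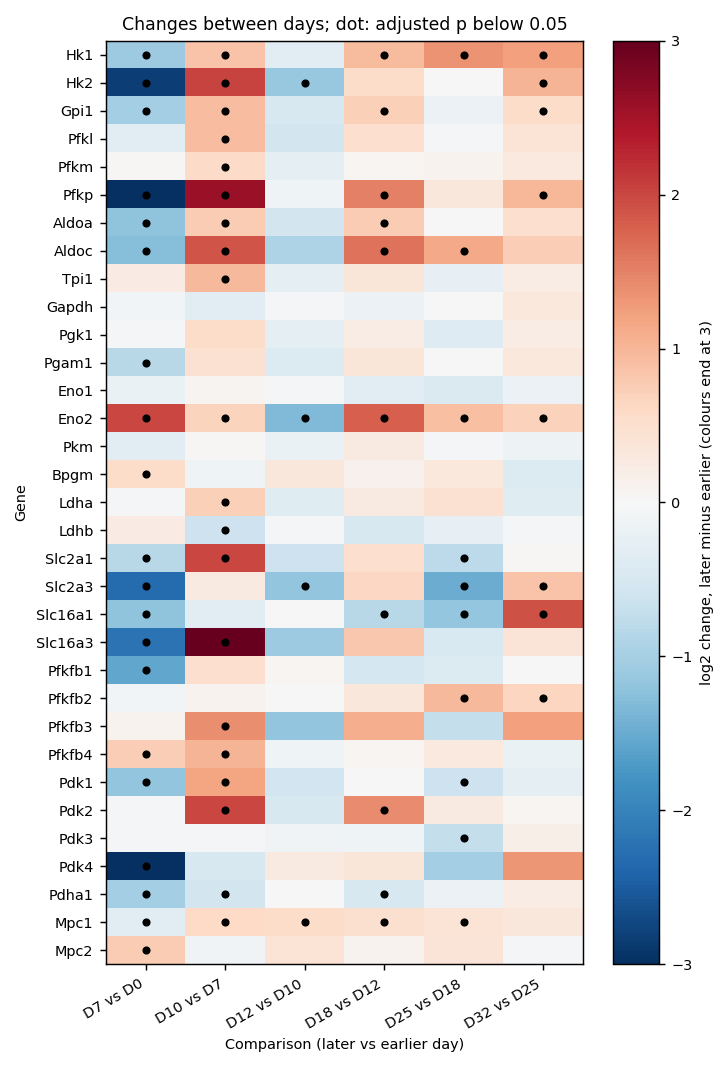
Log2 change of each gene in the 6 comparisons between days (colour, red higher and blue lower on the later day, colours end at 3); a dot marks an adjusted p below 0.05 by edgeR's quasi-likelihood test. The D7 vs D0 column holds 16 falls and 4 rises, and the D10 vs D7 column 18 rises and 2 falls.

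D10 to D12 covers the first days in 20% oxygen. Of the members 3 fell and 1 rose, against 1.89% and 2.52% of all tested genes (4.41% in either direction), and the median change was -0.29 over the members and 0 over all genes. Slc2a3 went from 460, 344 and 428 CPM to 173, 226 and 146 CPM and fell by 1.18 (SE 0.29; edgeR adjusted p = 0.027). Eno2 went from 82.3, 54.4 and 80.7 CPM to 31.4, 27.1 and 28.7 CPM and fell by 1.32 (SE 0.26; edgeR adjusted p = 0.0062). In both genes every D12 library lay below every D10 library. Hk2 was at 151, 133 and 95.3 CPM at D12 and fell by 1.14 (SE 0.33; edgeR adjusted p = 0.049), and Mpc1 rose by 0.56 (SE 0.14; adjusted p = 0.031).

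Of the 33 members 18 did not overlap between these days, against 29.2% of all tested genes, although 29 missed the threshold; Slc16a3 was among them, at 146, 112 and 132 CPM at D12 (-1.10, SE 0.38; edgeR adjusted p = 0.091). The count of called members is not stable. Without any 1 of the 6 libraries it was 1 or 2, and Hk2 was called in none of these 6 fits (edgeR adjusted p 0.075 to 0.17). Calls among all genes fell in these fits too, from 878 to between 133 and 492. Slc2a3 lost its call without D10 replicate 1 or 3 or D12 replicate 1 or 3 (0.079 to 0.1), and Mpc1 without any library but D12 replicate 3 (0.066 to 0.11). With a replicate block, which the libraries' numbers allow here, 3 members were called and Hk2 was at an adjusted p of 0.055. Pigment epithelium markers, summed, were at 811 to 961 CPM at D10 and 145 to 345 CPM at D12, with Rpe65 at 0 to 0.0486 CPM at D10; 1 of the 4 tested fell, and their part in the result was not tested.

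From D12 to D18, when summed photoreceptor markers went from 28.2 to 50.7 CPM up to 403 to 672 CPM, 8 members rose and 2 fell, against 12.6% and 10.7% of all tested genes (23.3% in either direction). The median change was 0.37 over the members and 0 over all genes. The photoreceptor markers' part in the changes was not tested. Eno2 reached 95.9, 88.0 and 117 CPM at D18 and rose by 1.79 (SE 0.26; edgeR adjusted p = 1.3e-05). Aldoc, the brain-type aldolase, went from 36.7, 19.3 and 33.2 CPM to 84.4, 70.3 and 120 CPM and rose by 1.62 (SE 0.36; edgeR adjusted p = 0.0015). Neither gene overlapped between the days.

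Pfkp rose by 1.51 (SE 0.26; edgeR adjusted p = 0.0001), from 314, 255 and 153 CPM to 994, 533 and 535 CPM, with replicate 1 of D18 well above the other two. Pdk2 rose by 1.41 (SE 0.20), Hk1 by 0.95 (SE 0.21), Aldoa by 0.76, Gpi1 by 0.72 and Mpc1 by 0.47; the Mpc1 call was lost without D12 replicate 3 (adjusted p = 0.078) or D18 replicate 3 (0.1). Slc16a1 fell by 0.83 (SE 0.16; edgeR adjusted p = 0.00037) and Pdha1 by 0.48 (SE 0.11). Libraries of the same number pair in this comparison, and 10 members were called with a replicate block as well as without.

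From D18 to D25 the members divided evenly, 5 higher and 5 lower, against 23.9% of all tested genes called in either direction, with median changes of -0.03 over the members and -0.01 over all genes. Photoreceptor markers went from 403 to 672 CPM up to 3620 to 5400 CPM (7 of 7 rose), proliferation markers from 1220 to 1340 CPM down to 374 to 626 CPM (4 of 4 fell) and ganglion cell markers from 80.6 to 119 CPM down to 11.2 to 31.9 CPM (3 of 3 fell); their part in the result was not tested. The 5 higher members were Hk1, Aldoc, Eno2, Pfkfb2 and Mpc1; of the 5 lower, 3 were transporters and 2 were Pdk kinases. Hk1 went from 79.7, 117 and 105 CPM to 206, 314 and 242 CPM, with no overlap, and rose by 1.34 (SE 0.21; edgeR adjusted p = 3.9e-05). Aldoc rose by 1.13 (SE 0.35; adjusted p = 0.019), Pfkfb2 by 0.98 (SE 0.20; adjusted p = 0.00082) and Eno2 by 0.90 (SE 0.25; adjusted p = 0.0094). Hk2, at 178, 123 and 258 CPM at D25, had a log2 difference of 0 (SE 0.33).

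Slc2a3 went from 287, 320 and 239 CPM to 102, 57.9 and 140 CPM and fell by 1.50 (SE 0.30; edgeR adjusted p = 0.00046). Slc16a1 went from 30.6, 33.5 and 36.7 CPM to a mean of 15 CPM (SD 3.63, highest library 19.1 CPM) and fell by 1.17 (SE 0.16; edgeR adjusted p = 7.2e-06). Both groups stood apart without overlap. Slc2a1 fell by 0.79 (SE 0.25; adjusted p = 0.019), Pdk3 by 0.71 (SE 0.14; adjusted p = 0.00044) and Pdk1 by 0.63 (SE 0.22; adjusted p = 0.042; 0.051 with the replicate block, which the numbers allow here).

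The count fell most without 2 libraries: it was 6 without D18 replicate 2 and 5 without D25 replicate 2. Calls among all genes went from 4761 to 3905 and 3251 in these fits. Without D25 replicate 2, Slc2a1 (adjusted p = 0.14), Pdk1 (0.23), Eno2 (0.064), Aldoc (0.05) and Mpc1 (0.088) lost their calls. Without D18 replicate 2, Slc2a1 (0.075), Pdk1 (0.14), Aldoc (0.093) and Mpc1 (0.13) lost theirs. Calls were also lost for Aldoc (0.07), Pdk1 (0.085) and Mpc1 (0.12) without D18 replicate 1, for Slc2a1 (0.055) and Pdk1 (0.088) without D25 replicate 1, and for Mpc1 (0.15) without D25 replicate 3.

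From D25 to D32, 8 members rose and none fell, against 9.31% and 13.8% of all tested genes (23.1% in either direction). By edgeR's unadjusted p below 0.05, 1 member was lower, Bpgm (log2 -0.40, adjusted p = 0.066), named after its values were seen; DESeq2 and limma also called 0 members lower. The median change was 0.32 over the members and -0.02 over all genes. Over the same days photoreceptor markers went from 3620 to 5400 CPM up to 7210 to 9270 CPM (4 of 7 rose). Bipolar markers went from 44.8 to 67.2 CPM up to 193 to 216 CPM (3 of 3 rose). Proliferation markers went from 374 to 626 CPM down to 53.7 to 68.8 CPM (4 of 4 fell), and the medium was changed. The markers' part was not tested, and the medium and the day cannot be told apart.

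Slc16a1 turned: after at most 19.1 CPM at D25 it was at 62.9, 51.7 and 53.4 CPM at D32, a rise of 1.90 (SE 0.17; edgeR adjusted p = 4.1e-09). Hk1 went on to 542, 670 and 594 CPM and rose by 1.24 (SE 0.21; edgeR adjusted p = 9.5e-05). Pfkp reached 1790, 1560 and 1900 CPM from 1040, 808 and 783 CPM and rose by 1.00 (SE 0.25; edgeR adjusted p = 0.0055). In all 3 genes every D32 library lay above every D25 library.

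Hk2 (1.03, SE 0.33), Slc2a3 (0.85, SE 0.29), Eno2 (0.70, SE 0.25), Pfkfb2 (0.65, SE 0.20) and Gpi1 (0.55, SE 0.17) rose too, with edgeR adjusted p of 0.024, 0.037, 0.043, 0.02 and 0.016. These calls were fragile: the count was 5 without D32 replicate 1 and 4 without D32 replicate 3. Calls among all genes went from 4591 to 3460 and 3486 in these fits. Hk2 and Slc2a3 lost their calls without D25 replicate 1 (adjusted p 0.072 and 0.081), D25 replicate 2 (0.13 and 0.21), D32 replicate 1 (0.074 and 0.1) or D32 replicate 3 (0.081 and 0.11). Eno2 lost it without any single library but D25 replicate 2 (0.068 to 0.18), Pfkfb2 without D25 replicate 3 (0.13), D32 replicate 2 (0.071) or D32 replicate 3 (0.065), and Gpi1 without D25 replicate 2 (0.071). With the library set as a term Eno2 was at an adjusted p of 0.067.

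Several of these steps have more than 1 gene for the same reaction, and which gene supplied most of the transcripts changed with the day. Shares were computed per length, that is from counts divided by transcript length, so that genes can be compared. All 10 shares differed over the days by a permutation test of the F statistic (100000 resamples, upper tail, adjusted p = 1e-05, the smallest these resamples can give).

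Hk1 made up 20.3% ± 1.19 (SD, n = 3) of hexokinase 1 and 2 transcripts at D0, 45.7% ± 2.69 at D7, 27.2% ± 2.30 at D10 and 70.7% ± 5.83 at D32. Hk2 therefore held the larger share through D18 and Hk1 from D22 on (62.4% ± 7.85). Among the phosphofructokinases, Pfkp held 54.5% ± 5.18 at D0, 13.0% ± 1.61 at D7 and 73.5% ± 3.25 at D32, while the liver-type Pfkl held 79.4% ± 6.41 at D4 and 22.4% ± 2.96 at D32. The muscle-type Pfkm held 17.4% ± 0.764 at D7 and 4.14% ± 0.406 at D32. At D12 and D18 the replicates were wide apart, Pfkp at 25.9 to 46.2% and 46.1 to 72.0%.

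Aldoc rose from 1.34% ± 0.0246 of the 2 aldolases at D7 to 9.69% ± 0.564 at D32. Eno2 was 0.37% ± 0.0328 of the 2 enolases at D0 and 17.7% ± 1.66 at D32. Aldoa and Eno1 thus stayed the larger partner on every day. Ldhb, the subunit of the heart-type enzyme, was 15.4% ± 3.95 of the 2 subunits at D0, 18.6% ± 1.21 at D7 and 8.43% ± 0.319 at D10, and lowest at D4 (3.69% ± 0.942) and D25 (4.11% ± 0.253).

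Slc2a3 made up 63.6% ± 1.95 of the 2 glucose transporters at D0, 38.7% ± 2.15 at D7 and 15.8% ± 0.541 at D10. From D12 to D32 its day means lay between 7.48% and 12.8%, so Slc2a1 was the larger partner on every day from D4 on. Slc16a3 was 65.7% ± 4.16 of the 2 lactate carriers at D0, 49.6% ± 1.24 at D7, 90.9% ± 2.38 at D10, 95.7% ± 1.11 at D25 and 89.4% ± 0.717 at D32.

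**Figure D3:**
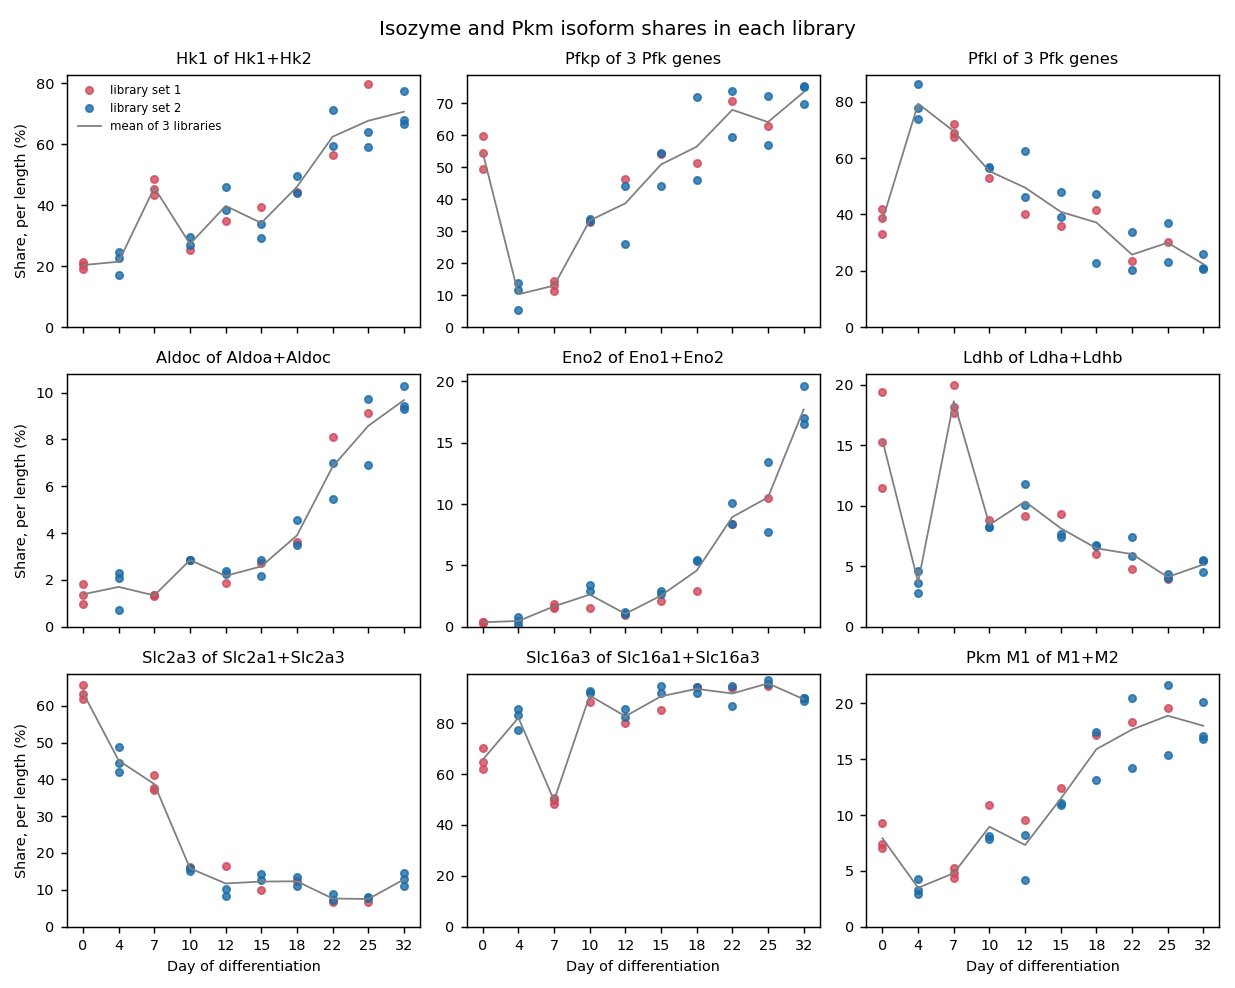
Share of each named gene among the genes for the same step, and of Pkm M1 among M1 and M2 (vertical axes, percent of per-length levels), against day (evenly spaced, not to scale). Points are libraries coloured by copy-sharing set and lines join the means of 3 libraries; Slc2a3 goes from 63.6% at D0 to 7.48% at D25, and Pkm M1 from 3.47% at D4 to 18.9% at D25.

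Pkm, the last enzyme of the path, changed in isoform use. Its level was called in none of the 6 comparisons, with day means between 3110 and 7700 CPM. The gene (GRCm38, chr9:59656368-59679375, plus strand) had 2 transcripts in the table, which differ in exon 9: M1, the form of adult muscle and brain, takes the first of 2 mutually exclusive exons, and M2, the form of embryonic and dividing cells, takes the second, 372 bases downstream. The exons are at chr9:59675029-59675195 and chr9:59675568-59675734, and are printed because the share of M1 rests on reads that tell them apart. Both are coding and 167 bases long; 103 bases are identical (61.7%) and capitals mark the 64 that differ.
M1 exon: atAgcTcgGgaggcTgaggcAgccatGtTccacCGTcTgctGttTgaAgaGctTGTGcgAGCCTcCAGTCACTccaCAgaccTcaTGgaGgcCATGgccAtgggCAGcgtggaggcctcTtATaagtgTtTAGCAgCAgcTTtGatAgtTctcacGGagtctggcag
M2 exon: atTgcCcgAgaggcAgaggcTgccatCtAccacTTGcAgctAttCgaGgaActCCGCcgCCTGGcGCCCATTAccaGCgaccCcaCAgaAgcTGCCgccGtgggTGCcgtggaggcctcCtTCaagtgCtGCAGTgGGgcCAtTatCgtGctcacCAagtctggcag

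M1 was at 9.29, 7.39 and 7.06% of the Pkm transcripts in the D0 libraries, at 4.23, 2.91 and 3.27% at D4 and at 5.21, 4.36 and 4.79% at D7. The D7 values all lay below those of D0, but the drop did not pass edgeR's transcript usage test (log2 -0.71 relative to the gene as a whole, adjusted p = 0.09). With the library set as a term the drop passed this test (adjusted p = 0.039). In this comparison 4.85% of the 6990 tested transcripts were called.

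M1 was at 8.12, 10.9 and 7.82% at D10 and at 21.7, 19.6 and 15.4% at D25. The groups did not overlap, and the rise of 1.07 on the log2 scale was called (edgeR transcript usage test, adjusted p = 0.0017; 3.79% of transcripts called). Replicate 3 of D0, D10, D12, D18, D22 and D25 gave the lowest M1 share of its day. From D25 to D32, at 16.8, 17.1 and 20.1%, no difference was called (-0.05, adjusted p = 1; 0.587% of transcripts called), so M2 remained the main form on every day.

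The usage test also called other members' transcripts. From D0 to D7 it called 6 transcripts of 4 members out of 50 tested transcripts of 16 members, against 4.85% of all tested transcripts. In Eno2, the transcript Eno2-001 went from 36.6% ± 2.49 of the gene to 0 in all 3 libraries of D7, and Eno2-003 went from 11.7% ± 12.4 to 25.6% ± 2.37 (adjusted p = 0.035). Gpi1-002, Gpi1-005 and Aldoa-003 fell and Pfkp-011 rose. From D10 to D25 it called 3 of the 50, against 3.79% of all tested transcripts. These were Pkm M1, Pdk1-002 (34.2% ± 0.282 to 22.8% ± 2.98) and Ldha-002, which stayed a minor form (0.396% to 1.31%). From D25 to D32 the edgeR usage test called 0 of the 50, against 0.587% of all tested transcripts, with 4 at an unadjusted p below 0.05. No other tool was run on usage.

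The members that moved most around D10 were set beside 15 known targets of the hypoxia-inducible factors that are not members (Bnip3, Vegfa and others). Their summed level was 665 to 743 CPM at D7, 2250 to 2590 CPM at D10 and 1130 to 1690 CPM at D12. It was 2310 to 2810 CPM at D18, 2370 to 3190 CPM at D25 and 3530 to 4070 CPM at D32. By edgeR's test 13 of the 15 rose and none fell from D7 to D10, against 20% and 17.8% of all genes (15 and 0 at an unadjusted p below 0.05), and 4 fell and none rose from D10 to D12, against 1.89% and 2.52% (9 and 0 unadjusted). Vegfa, the vascular growth factor, rose by 2.69 and then fell by 0.98; P4ha1, a collagen hydroxylase, rose by 2.07 and fell by 0.85. From D0 to D7, 8 fell and 1 rose (29.6% and 28.8% of all genes), with Ndrg1 (-3.95), Adm (-3.69) and Egln3 (-2.71) the largest falls. From D25 to D32, Egln3 (1.80), P4ha2 (1.51) and Vegfa (0.72) rose.

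Libraries of the same day also differed in these targets, which allows a look that leaves the day out. In the 21 libraries of D10 to D32, the deviation of each member's log2 level from its day mean was correlated with that of the summed targets, with p from 100000 permutations within days and Benjamini-Hochberg adjustment over the 33 members. This relation was chosen after the values were seen, and the 3 deviations of a day are not independent of each other. The permutations treat the days as independent, although same-numbered libraries deviated together between several of them, so these p-values may be too small. For 7 members both Pearson's r and Spearman's rho passed. The relation was computed for the 33 members only, so the share of all tested genes that would pass is not known.

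Pfkfb3 had r = 0.89 and rho = 0.90 (permutation p = 3e-04 for each, adjusted 0.00297 and 0.00286). Hk2 had r = 0.88 and rho = 0.86 (permutation p = 1e-04 and 2e-04, adjusted 0.00297 and 0.00286), and Slc2a3 had r = 0.88 and rho = 0.91 (permutation p = 2e-04 and 4e-05, adjusted 0.00297 and 0.00132). Slc16a3 had r = 0.80 and rho = 0.76 (permutation p = 0.00162 and 0.00468, adjusted 0.0134 and 0.0309). The others were Ldha (r = 0.78, rho = 0.73), Pdk1 (r = 0.72, rho = 0.72) and Tpi1 (r = 0.67, rho = 0.64), with permutation-based adjusted p between 0.0151 and 0.0388. Leaving out the 2 farthest libraries, D15 replicate 2 and D12 replicate 3, gave r = 0.87, 0.86, 0.83, 0.83, 0.74, 0.65 and 0.69 for these 7 in the order named. In the 15 libraries of the second copy-sharing set r was 0.95, 0.92, 0.72, 0.81, 0.81, 0.31 and 0.65, so that of Pdk1 did not hold there at its size; the first set has too few libraries for a value. With the mean of each replicate number also removed, r was 0.88, 0.87, 0.89, 0.81, 0.76, 0.71 and 0.62, an alternative chosen after seeing the data and given without a test.

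Pfkp (r = 0.12, rho = -0.01; adjusted permutation p 0.788 and 0.995), Pdk2 (r = 0.09), Aldoc (r = 0.09) and Eno2 (r = 0.21) did not pass, although all 4 rose from D7 to D10. The remaining 22 members did not pass either. Among them Pgam1 (r = 0.72) and Slc2a1 (r = 0.69) had a larger r than Tpi1, each with an adjusted permutation p of 0.0609. In the second copy-sharing set r of these 22 ran from -0.36 (Pfkfb2) to 0.84 (Mpc1), with Eno1 at 0.75 and Hk1 at 0.72. Members that passed and members that did not thus overlapped there. Whether the 2 kinds of member differ from each other was not tested.

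**Figure D4:**
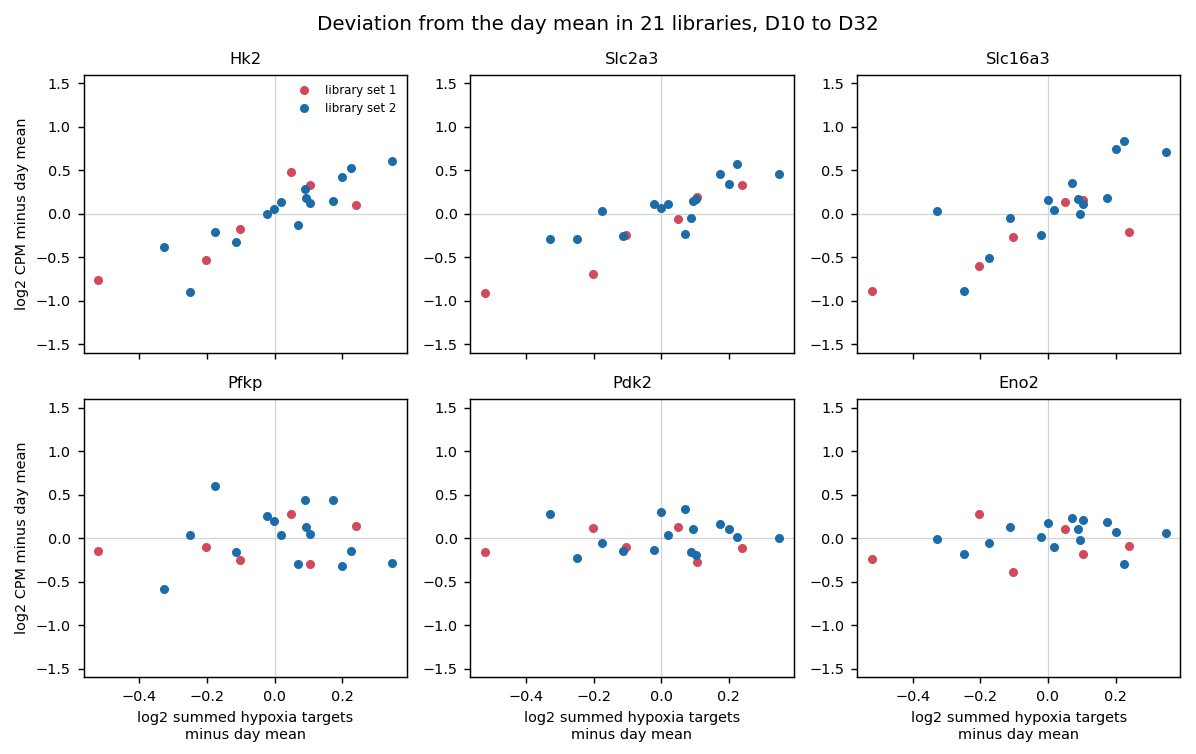
Deviation of 6 members from their day mean (vertical axis, log2 CPM) against the deviation of 15 summed hypoxia targets (horizontal axis, log2) in the 21 libraries of D10 to D32, coloured by copy-sharing set. Hk2 (r = 0.88), Slc2a3 (r = 0.88) and Slc16a3 (r = 0.80) passed the permutation test, and Pfkp (r = 0.12), Pdk2 (r = 0.09) and Eno2 (r = 0.21) did not.

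The core that hypoxia-inducible factors bind is written ACGTG or GCGTG. It was searched on both strands in the 250 bases before each RefSeq start; CACGTG, the site of Myc-type factors, holds ACGTG. Of 52 such windows of 32 members 38 held a match (73.1%), against 38.6% of 32851 windows of all genes; CACGTG stood in 6 of 52 (11.5%) against 6.0%. A match was found for 15 of the 18 members that rose from D7 to D10 and for 13 of the other 14 with a window. These counts are per gene, with a match in any of its windows. The share per gene was not computed for all genes, and the 38.6% per window is a different measure. The windows of Slc16a3, Slc2a1, Hk2, Pfkp and Pdk2 (which has 2) are printed since these 5 genes rose by 2.00 or more; Hk2, Pfkp and Pdk2 lie on the minus strand, capitals mark the matches on either strand, and the sequences are RefSeq's on GRCm38.p6.
Slc16a3, chr11:120948817-120949066: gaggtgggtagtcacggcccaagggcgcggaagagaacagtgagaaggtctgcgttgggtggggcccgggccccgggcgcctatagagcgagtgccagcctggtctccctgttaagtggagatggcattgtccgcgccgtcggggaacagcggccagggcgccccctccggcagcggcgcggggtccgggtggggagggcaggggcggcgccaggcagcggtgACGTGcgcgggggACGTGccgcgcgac
Slc2a1, chr4:119108495-119108744: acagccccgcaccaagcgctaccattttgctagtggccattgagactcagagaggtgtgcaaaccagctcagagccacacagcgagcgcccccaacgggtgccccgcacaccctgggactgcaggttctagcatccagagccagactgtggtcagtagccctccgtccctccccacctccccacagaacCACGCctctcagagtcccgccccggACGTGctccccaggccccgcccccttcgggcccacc
Hk2, chr6:82774455-82774704: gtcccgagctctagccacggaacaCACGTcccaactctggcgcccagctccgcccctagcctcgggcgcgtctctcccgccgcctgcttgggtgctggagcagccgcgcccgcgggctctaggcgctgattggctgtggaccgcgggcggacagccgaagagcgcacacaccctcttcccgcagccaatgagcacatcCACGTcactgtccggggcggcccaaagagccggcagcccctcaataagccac
Pfkp, chr13:6648772-6649021: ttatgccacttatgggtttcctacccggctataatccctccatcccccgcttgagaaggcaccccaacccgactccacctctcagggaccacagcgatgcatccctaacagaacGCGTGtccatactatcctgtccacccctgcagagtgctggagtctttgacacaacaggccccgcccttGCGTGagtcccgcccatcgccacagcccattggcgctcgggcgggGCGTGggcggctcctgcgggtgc
Pdk2, chr11:95040876-95041125: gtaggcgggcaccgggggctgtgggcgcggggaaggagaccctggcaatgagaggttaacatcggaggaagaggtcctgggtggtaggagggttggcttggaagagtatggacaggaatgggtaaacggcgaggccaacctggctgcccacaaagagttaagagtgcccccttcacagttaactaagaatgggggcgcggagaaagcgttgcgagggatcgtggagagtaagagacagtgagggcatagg
Pdk2, chr11:95041372-95041621: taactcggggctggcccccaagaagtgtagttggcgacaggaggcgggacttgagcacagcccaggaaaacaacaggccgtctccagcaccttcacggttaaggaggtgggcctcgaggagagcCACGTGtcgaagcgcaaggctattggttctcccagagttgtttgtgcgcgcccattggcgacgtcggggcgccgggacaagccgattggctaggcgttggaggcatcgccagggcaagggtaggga

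Slc16a3, Slc2a1 and Hk2 each held 2 matches at separate places, and Pfkp held 3. The first Pdk2 window held 0. The second held a single CACGTG, which reads the same on both strands and was therefore counted as 2 matches. A match shows these letters in this window and no binding.

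Eno1 needs a caution, since Eno1b, a copy whose transcript is 99.5% identical, took part of its reads. Copies of Eno1 held 5.29 to 16.5% of the joint counts in the first set of libraries and 37.4 to 44.7% in the second. With copies added Eno1 remained uncalled, but its D10 vs D7 difference moved from 0.09 to 0.47 (edgeR adjusted p = 0.064), and the share of Eno2 at D32 was 10.5% ± 0.783 in place of 17.7%. Gapdh has 167 copies, which held 3.19 to 15.5%, those of Pgk1 held 5.16 to 16.8% and those of Mpc1 up to 14.9%. No call of any of the 33 members changed when the copies were added.

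**Figure D5:**
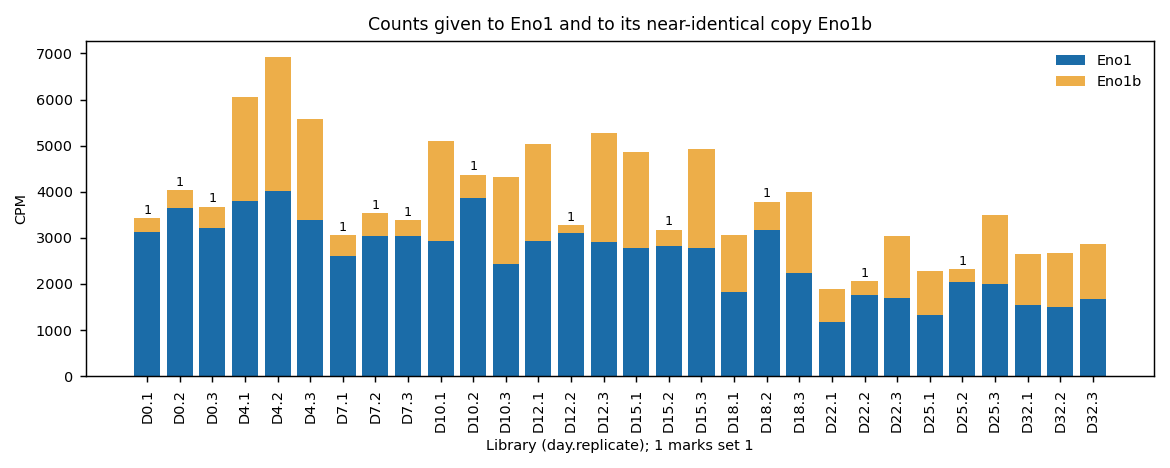
CPM given to Eno1 (lower bar) and to Eno1b (upper bar) in each of the 30 libraries; 1 marks the 12 libraries of the first copy-sharing set. Eno1b is a small part of the bar in every marked library and 37.4% or more in the others.

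Further lists cover the genes around the path. Of 16 tested further glycolysis genes, 6 rose and 5 fell from D0 to D7 (28.8% and 29.6% of all genes), among them Eno3, the muscle enolase (17.9 to 103 CPM, a rise of 2.53), and Tigar, a phosphatase that lowers fructose 2,6-bisphosphate (a fall of 1.84). From D7 to D10, 2 rose and 6 fell (20% and 17.8% of all genes), with Eno3 (-0.91) and Tigar (-0.89) among the falls. Of 7 tested other pyruvate dehydrogenase genes, 1 rose and 5 fell in that comparison, the last including Pdhb (-0.93) and Dld (-0.69), subunits of the complex. Of 12 tested further transport genes, 4 rose and 2 fell from D25 to D32 (9.31% and 13.8% of all genes), among them Slc2a12 (1.02 to 12.7 CPM, 3.63) and Bsg, the chaperone of the lactate carriers (514 to 881 CPM, 0.78).

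Of the 9 pentose phosphate genes, which make NADPH and ribose, 5 fell and 2 rose from D0 to D7 (29.6% and 28.8% of all genes), and 4 fell and none rose from D25 to D32 (13.8% and 9.31% of all genes) by edgeR's test (6 and 0 at an unadjusted p below 0.05), among them Pgd (-0.84) and Rpia (-0.73). Of 14 tested gluconeogenesis and glycogen genes, 4 rose and 1 fell from D7 to D10 (20% and 17.8% of all genes); Gys1, glycogen synthase, had fallen by 1.50 from D0 to D7 and rose by 1.54 after it. Among 8 regulators, Epas1, which encodes HIF-2 alpha, fell by 4.61 from D0 to D7 and rose by 3.40 from D25 to D32, while Hif1a rose by 0.65 from D0 to D7. Ppargc1a, a driver of mitochondrial gene expression, rose by 6.74 and 1.73 in the same 2 comparisons, from means of 0.0722 to 8.51 CPM and 6.72 to 22.4 CPM. Mycn fell by 2.32 and 1.49. From D10 to D12 edgeR called 0 regulators, against 2.52% of all genes higher and 1.89% lower, although 3 were higher and 1 lower at an unadjusted p below 0.05.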

How the data were processed

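Poly(A), stranded libraries were made with 3 biological replicates per day, per the labels. The tools are Trimmomatic 0.36 (trimming), kallisto 0.42.4 (quantification, in which a read that fits several transcripts is split) and edgeR (version not given), and the build GRCm38.p4, per the submitters' processing notes. The authors deposited estimated counts per gene and per transcript and a table of normalised signal per gene (CPM); 3 columns in each table, 9 in all, matched no sample's labels and were left out. The step from transcripts to genes and the use of strand are not given in the sources used here. Gene and transcript tables had the same library totals, but of 19182 genes with 1 transcript 51 had equal values in both (within 0.1%), so gene counts are not plain sums of transcript counts. Genes that overlap a partner may share reads.

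The estimated counts, rounded to whole numbers, went into edgeR 4.0.16 under R 4.3.3: filterByExpr (minimum count 10, minimum total 15), TMM, 1 mean per day over all 30 libraries, the quasi-likelihood test and Benjamini-Hochberg adjustment over 19897 genes, called below 0.05. SE is the log2 change over the square root of F. Transcript usage was tested with edgeR's diffSpliceDGE on transcripts averaging at least 10 CPM, a filter chosen on simulated data. Copies are genes with 300 or more aligned bases at 90% identity or more to a member's transcript and at least 50% of their own covered (BLAST 2.17.0). Alternatives were limma 3.58.1 on the deposited signal, DESeq2 1.42.0, other scalings and filters, blocks and left-out libraries. Members and lists were chosen with earlier results of these data known. Members named with full statistics are the up to 5 called ones with the largest change in each direction, at 10 CPM or more. Same-numbered libraries deviated together in D12 vs D10 (r 0.175, 0.449 and 0.2), D18 vs D12 (0.102, 0.233 and 0.266) and D25 vs D18 (0.38, 0.422 and 0.341), so the numbers were taken to pair the libraries there.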

Additional observations from a re-analysis of the deposited data

How the results depend on the processing

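The count of members called stayed within 1.5 times its value in all 6 comparisons and over all days under RLE scaling, no scaling factors, DESeq2, both other filters, limma on the deposited signal with 1 or 0.1 added, the library set as a term, the replicate block, the copies added, without D4 replicate 2, and, for the 6 comparisons, with only the 6 libraries of the pair. It was 12 against 8 for D32 vs D25 with DESeq2, without D4 replicate 2 or with only the pair's libraries. Unscaled libraries moved the median of all genes by 0.19 in D7 vs D0, 0.13 in D10 vs D7, -0.12 in D12 vs D10 and 0.12 in D18 vs D12, where members called higher and lower became 6 and 15 (from 4 and 16), 20 and 2 (from 18 and 2), 0 and 5 (from 1 and 3) and 13 and 1 (from 8 and 2). Among all called genes the higher share went from 52.9 to 64.9% in D10 vs D7, 57.1 to 26.8% in D12 vs D10 (44.8% with RLE), 54.2 to 71.6% in D18 vs D12 and 40.3 to 52.8% in D32 vs D25. No called member reversed. Without 1 library at a time the counts were 33 over all days, 19 to 20 for D7 vs D0, 17 to 20 for D10 vs D7, 1 to 2 for D12 vs D10, 9 to 11 for D18 vs D12, 5 to 10 for D25 vs D18 and 4 to 8 for D32 vs D25. Of all genes, 10803 to 11001 were called for D7 vs D0 (11622 with every library) and 5951 to 6728 for D10 vs D7 (7522). For D12 vs D10 it was 133 to 492 (878) and for D18 vs D12 3450 to 4061 (4638). For D25 vs D18 it was 3251 to 4301 (4761) and for D32 vs D25 3438 to 3879 (4591). Fewer libraries were in these fits, and the filter kept 20350 to 20457 genes in them in place of 19897. The parts of these 2 changes were not tested, and neither was any other cause.

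The drop of Pkm M1 from D0 to D7 kept its size of -0.71 and was called with the library set as a term (adjusted p = 0.039 by edgeR); without 1 library at a time it was -0.79 to -0.59. With the replicate block, which was supported by same-number correlations only for the 3 middle comparisons, it was -0.71 (adjusted p = 0.05), 1.08 from D10 to D25 (0.00039) and -0.03 from D25 to D32 (1). Correlations of same-numbered libraries were -0.197, -0.054 and -0.223 for D7 vs D0, 0.087, 0.008 and -0.113 for D10 vs D7, and 0.144, 0.205 and -0.013 for D32 vs D25; with the block 20, 20 and 9 members were called there. All 10 isozyme shares remained called under each alternative. Of the members, Pdk4 is the one depth limits most: no library after D0 exceeded 1.07 CPM.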
